A study of Mus musculus with 9 samples.

Results

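The polysomal-to-total ratio of each message was compared between 2 populations of C57BL/6 mouse primary hematopoietic cells, LSK cells, which the labels call stem cells, and MP cells, which they call progenitor cells and do not spell out further. Total RNA, kept back from the cell lysate, was sequenced from 2 LSK and 2 MP libraries, and polysomal RNA from 2 LSK and 3 MP libraries, so all 9 libraries of the study enter. Cells of every group, controls included, had received cycloheximide (100 ug/ml, 10 min), a drug that stalls translating ribosomes in place. Polysomal RNA was fraction 7 of the 10 fractions of a 10 to 60% sucrose gradient, so it covers 1 size range of ribosome-loaded messages and not all of them. The labels name no ages, sexes or number of mice, leave it unsaid if separate animals stand behind the libraries, and leave it unsaid if a total and a polysomal library share a lysate. P-values therefore measure only the spread between these libraries. The quantity tested for each gene was the interaction, (MP polysomal minus MP total) minus (LSK polysomal minus LSK total), on the log2 scale. It is called the ratio difference here, and a positive value means that the ratio was higher in MP than in LSK. Of 47480 gene names, 16426 had enough counts to be tested.

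Ribosome loading is one of the steps at which cells set how much protein a message yields. Messages in heavy gradient fractions carry several ribosomes, whereas nuclear RNAs, small RNAs and stored messages are largely left out of them. A polysomal-to-total ratio can differ between populations because the polysomal RNA differs, because the total RNA differs, or both, so each difference was also taken apart into its MP minus LSK difference in total RNA and in polysomal RNA. A ratio difference was placed on the total side where the difference in total RNA was at least 2 times that in polysomal RNA, on the polysomal side in the reverse case, and on both sides otherwise. As a view of single libraries, the 4 polysomal-to-total ratios of LSK (each polysomal over each total library) were set beside the 6 of MP, and the ranges were called apart where they did not overlap.

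Library totals ran from 27342343 to 34807735 counts. The spread between libraries was large: the biological coefficient of variation had a median of 0.558, and the median standard error of a ratio difference was 1.05 on the log2 scale. The labels held for their defining surface genes. Ly6a, which encodes the stem cell antigen Sca-1, lay between 50.2 and 109.6 CPM (counts scaled to library size) in the 4 LSK libraries and between 0.159 and 1.26 CPM in the 5 MP libraries, and Kit, the stem cell factor receptor, lay at 330.2 CPM or more in all 9. LSK polysomal 2 stood apart from the other libraries: the mean GC content of its counted transcripts was 52.3%, against 49.2 to 51.1% in the other 8. The list of 27 maturing neutrophil genes took 2.04% of the counts of MP polysomal 1 and 1.58% of those of MP total 1, but 0.0939 to 0.362% of the counts in the other 7 libraries. Immunoglobulin genes took 0.511% in LSK polysomal 2 and 0.837% in LSK total 2, but at most 0.111% in the other 7 libraries.

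No gene passed the test of the ratio difference at an adjusted p under 0.05 (edgeR's quasi-likelihood test, Benjamini-Hochberg over all genes tested), which is 0% of those tested, and the smallest adjusted p was 0.877. At an unadjusted p under 0.05 there were 869 genes, against 821.3 expected by chance over 16426 tests. They were unevenly divided: 778 genes (4.74%) had a higher ratio in MP and 91 (0.554%) a lower one. Without LSK total 1 the division was 352 against 332, and without LSK polysomal 1 it was 2456 against 595. With the replicate number as a block it was 1090 against 794 within populations and 1028 against 829 with numbers shared by all groups, so the uneven division depends on the design of the fit. The ranges of the library ratios were apart with a higher ratio in MP for 1719 genes (10.5%) and with a lower ratio for 750 (4.57%). The comparisons that make up the interaction gave 179 genes at an adjusted p under 0.05 between MP and LSK in total RNA (1.09%) and 551 in polysomal RNA (3.35%). Polysomal against total RNA gave 0 genes (0%) in LSK and 0 genes (0%) in MP in the same fit, with 1981 and 1243 genes at an unadjusted p under 0.05. Single genes are therefore given below as values with their error, and gene groups by their counts and medians beside those of all tested genes.

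Total RNA carried more of the higher ratios in MP than polysomal RNA did. Of the 425 genes with an unadjusted p under 0.05, a higher ratio in MP and at least 10 CPM in some group, 256 (60.2%) fell on the total side, 26 (6.12%) on the polysomal side and 143 on both. Over all 9964 genes at that level the shares were 30.7% on the total side and 25.4% on the polysomal side. Over all 16426 genes they were 28.2% and 25.9%. Of all 778 genes with such a p and a higher ratio, whatever their level, 343 (44.1%) were on the total side. On the polysomal side there were 157 of them (20.2%), and 278 were on both. The medians of the 425 genes were an MP minus LSK difference of -1.87 in total RNA and of 0.67 in polysomal RNA, and within each population the ratio was -1.13 in LSK and 1.45 in MP. In 390 of the 425 genes the ratio lay below 0 in 1 population and above 0 in the other. The same held for 4569 of all 9964 genes with at least 10 CPM in some group. The 33 genes with a lower ratio in MP under the same conditions were divided evenly, with 12 on the total side, 12 on the polysomal side and 9 on both, and 26 of them differed mainly by their ratio in LSK. Over all 91 genes with a lower ratio, whatever their level, 19 were on the total side, 52 on the polysomal side and 20 on both. These genes were picked by the ratio difference itself, so the division is a description of them and not a test.

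The largest positive ratio differences among the gene groups were those of nuclear long noncoding RNAs and zinc finger genes, whose total RNA was lower in MP than in LSK. Negative ones were found for glycolysis enzymes, the respiratory chain, ribosomal proteins and the proteasome, whose total RNA was higher in MP. For glycolysis enzymes, by the group's median level, only LSK total 2 lay below both MP total libraries. The lowest median of all, -1.50 over 23 maturing neutrophil genes, rested on single libraries, at -3.90 without MP polysomal 1 and 1.16 without MP total 1. The plot of group medians shows both fractions. The median MP minus LSK difference in polysomal RNA was -0.03 for zinc finger genes and between -0.08 and 0.06 for the respiratory chain, both sets of ribosomal proteins and the proteasome, but 0.57 for nuclear long noncoding RNAs and -0.37 for glycolysis enzymes. The median ratio difference over all tested genes was -0.10. In bulk libraries, fewer cells of a type and less RNA per cell cannot be told apart.

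**Figure D1:**
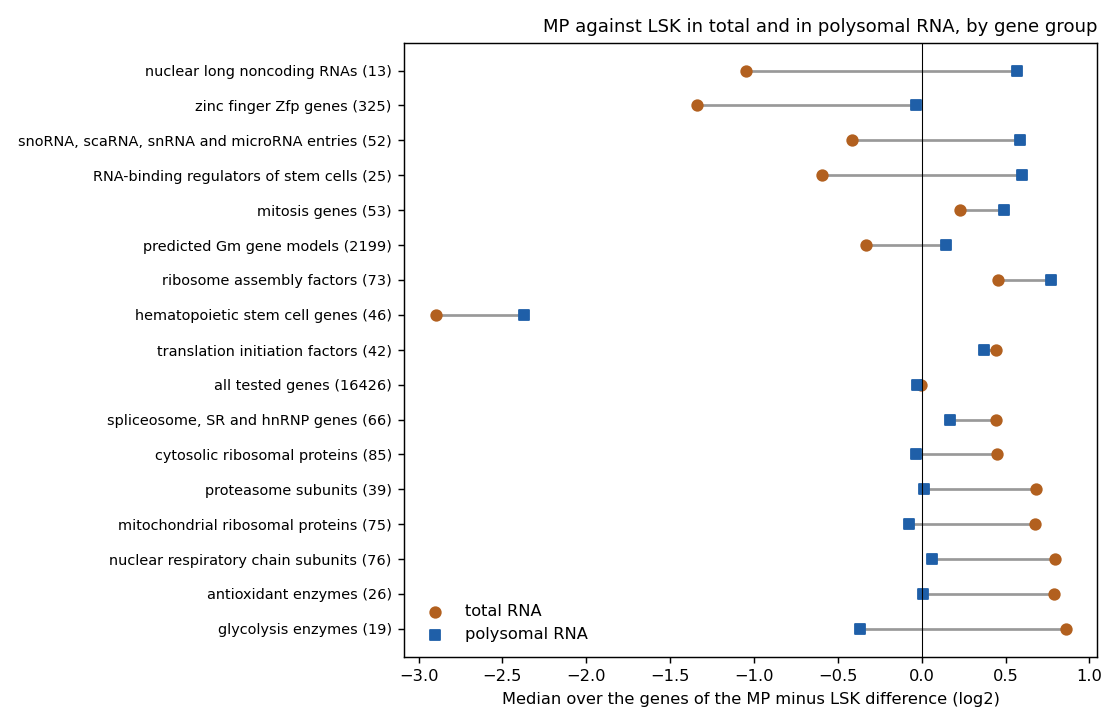
Median MP minus LSK difference (log2, horizontal axis) of 16 gene groups and of all tested genes, in total RNA (orange circles) and in polysomal RNA (blue squares), with the number of tested genes in brackets; the gap between the 2 marks approximates the median ratio difference. Total RNA spans -1.34 for zinc finger genes to 0.86 for glycolysis enzymes outside the stem cell genes, which lie at -2.90 in total and -2.37 in polysomal RNA.

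Zinc finger genes with Zfp symbols encode mostly DNA-binding proteins of the C2H2 type, many of which recruit silencing complexes to transposable elements through a KRAB domain. The counts named 367 such genes, of which 325 were tested. Their median ratio difference was 1.24, 248 had a higher ratio in MP, 83 of these (25.5% of 325, against 4.74% of all genes) had an unadjusted p under 0.05, and none had a p under 0.05 in the other direction. The difference lay in total RNA, where their median MP minus LSK difference was -1.34, against -0.03 in polysomal RNA. The median ratio was -0.61 in LSK and 0.60 in MP, and the range of the group's median over library pairs, -1.74 to 0.03 in LSK and 0.37 to 0.88 in MP, did not overlap. Of the 83 genes, 72 were on the total side and 0 on the polysomal side. In the separate test of total RNA, 4 of the 325 passed at an adjusted p under 0.05, a share near the 1.09% of all genes. Among the 234 with at least 10 CPM in some group the median was 1.18. It was 0.74 without LSK total 1 and 2.29 without LSK polysomal 1.

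The zinc finger genes differed by chromosome, where many lie in tandem clusters. The median ratio difference was 2.49 for the 39 tested on chromosome 17, of which 36 had a higher ratio in MP and 23 an unadjusted p under 0.05, and 2.28 for the 33 on chromosome 13, of which 33 were higher and 17 had such a p. For the other 253 the median was 0.74, with 179 higher and 43 at such a p. The difference between chromosomes was not tested, and it moved with base composition: the median GC content of the transcripts was 39.4% and 39.1% on chromosomes 17 and 13 and 47.5% on the others.

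**Figure D2:**
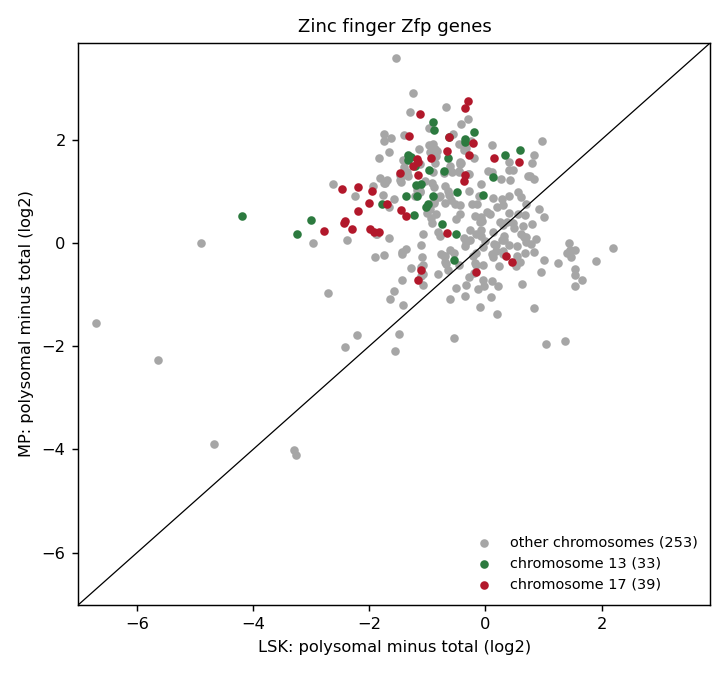
Polysomal minus total difference (log2) in LSK (horizontal axis) and in MP (vertical axis) for the 325 tested zinc finger Zfp genes, each point 1 gene; on the diagonal line both populations have the same ratio. The 39 genes of chromosome 17 (red) and the 33 of chromosome 13 (green) lie mostly at the upper left, below 0 in LSK and above 0 in MP.

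Among the zinc finger genes with the smallest p, Zfp758, Zfp943 and Zfp942 are neighbours on chromosome 17. Zfp758 (chr17:22361453-22377281, GRCm38, GENCODE M21, plus strand) was at 21.1 and 21.5 CPM in LSK total RNA and at 4.75 and 4.53 CPM in LSK polysomal RNA, and at 2.80 and 2.53 CPM in MP total and 5.36, 2.71 and 4.24 CPM in MP polysomal RNA. Both LSK total libraries stood above all others, and the other 7 lay within a narrow band. The ratio difference was 2.82 (SE 0.78, unadjusted p = 0.00493, adjusted p = 0.877). Zfp943 (plus strand) gave 3.51 (SE 0.98) and Zfp942 (minus strand) 3.01 (SE 0.86), again with both LSK total libraries highest, at 28.6 and 17.1 CPM and at 49.7 and 30.5 CPM. Zfp944 and Zfp946, added here because they lie beside them, gave 2.26 (SE 0.86) and 2.86 (SE 1.00).

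All of these genes but Zfp946 form head-to-head pairs with overlapping start regions. The windows of 300 bases around the starts of Zfp758 and Zfp944 overlap by 162 bases, and those of Zfp943 and Zfp942 by 194. The 2 pairs are near copies of each other, with 87.7% identical bases between the aligned windows of Zfp758 and Zfp943 and 99.6% between those of Zfp944 and Zfp942. The 60 bases before each RefSeq start are shown because the neighbours had the same direction and because such near copies may split reads, which leaves the values of single genes uncertain. Sequences are from RefSeq (GRCm38.p6), written 5′ to 3′ on the strand of the gene, with the letters CACGTGAC in capitals. The letters were searched on both strands. In all but Zfp946 the match of the other strand, GTCACGTG, overlaps the capitals, and its leading gt is left in lower case.
Zfp758, chr17:22361403-22361462, plus strand: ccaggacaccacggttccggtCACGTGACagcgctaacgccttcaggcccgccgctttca
Zfp944, chr17:22361401-22361460, minus strand: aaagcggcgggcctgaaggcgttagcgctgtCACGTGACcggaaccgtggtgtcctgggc
Zfp943, chr17:21962499-21962558, plus strand: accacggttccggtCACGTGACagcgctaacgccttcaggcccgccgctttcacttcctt
Zfp942, chr17:21962465-21962524, minus strand: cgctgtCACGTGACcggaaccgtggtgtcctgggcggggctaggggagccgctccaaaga
Zfp946, chr17:22424142-22424201, plus strand: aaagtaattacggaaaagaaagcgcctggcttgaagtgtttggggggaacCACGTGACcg
The 8 letters, which contain the core of the E-box, CACGTG, were picked after the windows had been seen. They occur in the 300-base windows of 2.55% of 27025 genes, of 5.26% of the 266 tested Zfp genes with a window, and of 8 of the 36 on chromosome 17. The marked letters of Zfp758 and Zfp944 overlap on the genome, and so do those of Zfp943 and Zfp942. The same site is thus counted for both genes of a pair, and the pairs are near copies, so these counts are not of separate sites. A match is a description of these letters and not a binding site.

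Nuclear long noncoding RNAs stay largely in the nucleus, where several organise chromatin or nuclear bodies, and are not translated. Of the 13 tested, 12 had a higher ratio in MP, with a median of 1.45, and 5 (Malat1, Dleu2, Firre, Kcnq1ot1 and Ftx) had an unadjusted p under 0.05 (38.5%, against 4.74% of all genes). The median MP minus LSK difference was -1.05 in total RNA and 0.57 in polysomal RNA. All 13 had less polysomal than total RNA in LSK, and 10 did so in MP. Malat1, a long RNA of nuclear speckles (chr19:5795690-5802672, minus strand), was at 679 and 978 CPM in LSK total, 183 and 13.5 CPM in LSK polysomal, 88.6 and 112 CPM in MP total and 242, 136 and 242 CPM in MP polysomal RNA. Total RNA of LSK was the highest group, and in MP the polysomal libraries all exceeded the total libraries, which is a level of a nuclear RNA in the polysomal fraction. The ratio difference of Malat1 was 4.11 (SE 1.29, unadjusted p = 0.0103), with its total side at -3.04, and 7.11 without LSK polysomal 1. Firre, an X-linked RNA that organises chromatin, was at 104 and 20.2 CPM in LSK total RNA and between 2.33 and 16.9 CPM in all other libraries, and gave 2.96 (SE 1.13), but 1.34 without LSK total 1. Neat1, the scaffold of paraspeckles, gave 1.45 (SE 1.09, unadjusted p = 0.213), and leaving out 1 library gave 0.40 (LSK total 1) to 3.11 (LSK polysomal 1), with 0.72 for LSK polysomal 2. Without LSK polysomal 1 the median of the group was 3.0.

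Several classes of noncoding and intronic gene models, but not all, had the same direction. The median ratio difference was 2.35 for 463 single-exon models of the class TEC, 3.03 for 63 sense intronic RNAs, 1.64 for 53 snoRNAs and 0.52 for 395 lincRNAs, against -0.20 for 12782 protein-coding genes. It was -0.10 for 46 bidirectional promoter RNAs and -0.17 for 981 processed pseudogenes. Antisense models had 0.49 over 469, but -0.04 over the 22 with at least 10 CPM in a group. A group without counts was present for 157 of the TEC models and 28 of the sense intronic RNAs. With those groups set to a floor of 3 counts the medians were 1.84 and 1.84. Only 5 TEC models and 1 sense intronic RNA reached 10 CPM in a group. Such models pass the filter mostly through the group where they are high, so the medians describe the models that passed and support nothing beyond them. No source used here gives the strand setting of the counting, so reads of an intronic or antisense model and of its host gene cannot be told apart.

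The 15 genes with the smallest p and a higher ratio in MP, among named genes with at least 10 CPM in a group, included the splicing and export factors Prpf39, Luc7l3, Srek1, Rbm25, Clk1 and Fyttd1. The ranges of all 15 were apart, whereas 10.5% of all tested genes had ranges apart with a higher ratio. The genes were picked by p from the same libraries, so that describes them and is not a test. Their ratio differences ran from 2.55 to 4.28, 8 were on the total side, 7 on both and 0 on the polysomal side. Prpf39, a component of the U1 small nuclear ribonucleoprotein (chr12:65036333-65063386, plus strand), was at 117 and 79.8 CPM in LSK total RNA, 11.4 and 4.94 CPM in LSK polysomal, 17.3 and 16.5 CPM in MP total and 24.6, 19.1 and 38.1 CPM in MP polysomal RNA. LSK total RNA was highest, LSK polysomal RNA lowest, and the MP groups lay between with polysomal above total. The ratio difference was 4.28 (SE 0.87, unadjusted p = 0.000695), from -2.54 in total RNA and 1.74 in polysomal RNA. Luc7l3, another U1-associated splicing factor, was at 112 and 97.0 CPM in LSK total, 42.6 and 25.3 CPM in LSK polysomal, 30.3 and 30.1 CPM in MP total and 74.5, 49.2 and 51.7 CPM in MP polysomal RNA, so the order of the fractions was reversed between the populations. It gave 2.57 (SE 0.71). Srek1, Rbm25 and Clk1, a serine- and arginine-rich splicing regulator, a U1-associated splicing regulator and a kinase of splicing factors, gave 3.22 (SE 0.90), 2.56 (SE 0.72) and 3.11 (SE 0.90). Fyttd1, an adaptor of messenger RNA export, gave 2.55 (SE 0.67).

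**Figure D3:**
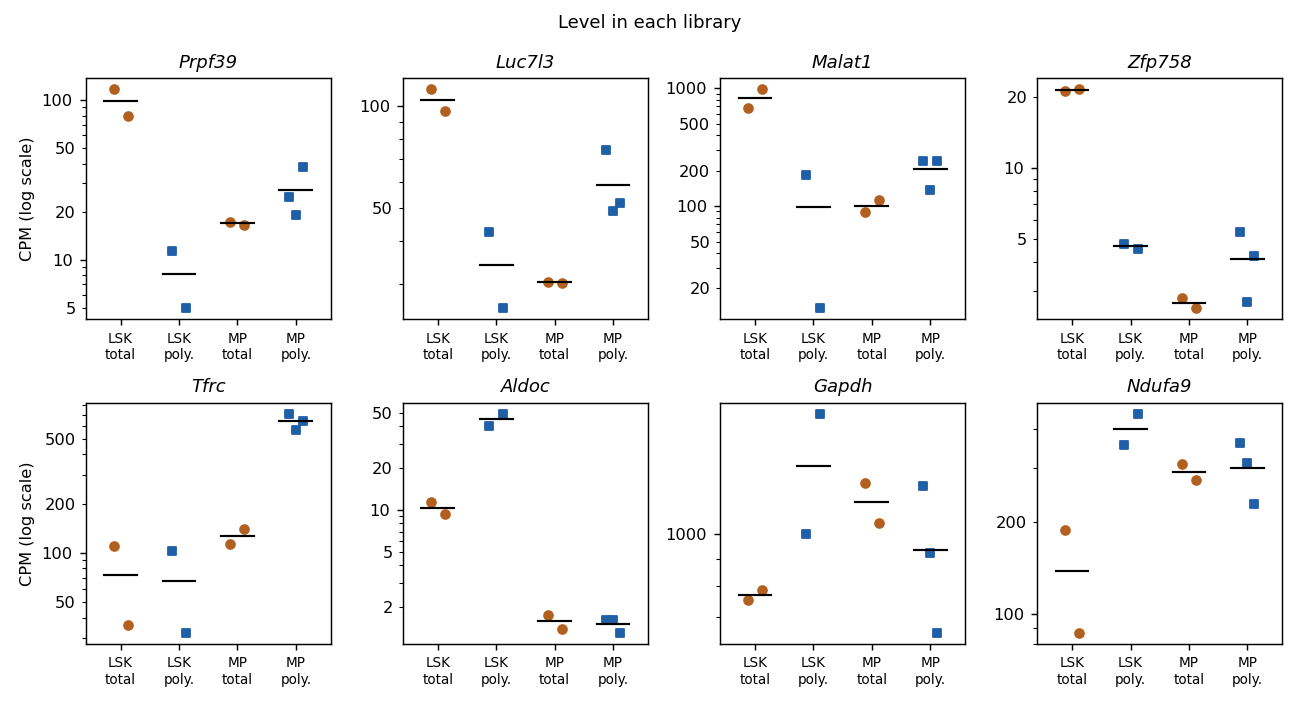
Level of 8 genes in CPM (log scale, vertical axis) in each library, grouped by population and fraction (orange circles total RNA, blue squares polysomal RNA, black bars arithmetic means of the group). Prpf39, Luc7l3, Malat1 and Zfp758 are highest in LSK total RNA, Tfrc stands at 568 to 711 CPM in MP polysomal RNA, and Aldoc, Gapdh and Ndufa9 are higher in polysomal than in total RNA of LSK.

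The list of spliceosome, SR and hnRNP genes, which holds none of the splicing and export factors named above, did not share this direction. Of 66 spliceosome, SR and hnRNP genes 25 had a higher ratio in MP, the median was -0.18, and 2 (3.03%, against 4.74% of all genes) had an unadjusted p under 0.05 with a higher ratio. Those were Srsf10, a splicing repressor, at 1.97 (SE 0.71) and on the polysomal side, and Sf3b1, the branch point factor of the U2 particle. Sf3b1 was at 1049 and 431 CPM in LSK total, 1502 and 529 CPM in LSK polysomal, 323 and 293 CPM in MP total and 2115, 1802 and 1818 CPM in MP polysomal RNA. Its ratio difference was 2.18 (SE 0.81, unadjusted p = 0.0236), and its 3 MP polysomal libraries were the highest of all 9.

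Mitosis genes, which drive chromosome condensation, spindle assembly and cell division, had a median of 0.56 over 53 genes, with 8 (15.1%, against 4.74% of all genes) at an unadjusted p under 0.05 and a higher ratio. Here the median was 0.23 in total RNA and 0.49 in polysomal RNA, and 43 of 53 were higher in MP polysomal RNA. Ncapg, a condensin subunit, was at 143 and 70.3 CPM in LSK total, 46.0 and 14.8 CPM in LSK polysomal, 35.6 and 28.5 CPM in MP total and 107, 125 and 109.9 CPM in MP polysomal RNA, so total exceeded polysomal RNA in LSK and the reverse held in MP. It gave 3.64 (SE 0.88, unadjusted p = 0.00223). Anln, an actin-binding protein of the cleavage furrow, gave 2.71 (SE 0.94), but 1.51 without LSK total 1. The median of the group was 0.05 without LSK total 1 and 1.32 without LSK polysomal 1.

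Tfrc, the transferrin receptor that takes up iron, differed on the polysomal side. It was at 110.4 and 35.9 CPM in LSK total, 102 and 32.3 CPM in LSK polysomal, 113 and 140.4 CPM in MP total and 711, 568 and 645 CPM in MP polysomal RNA. The 3 MP polysomal libraries lay above all others, and the 2 fractions of LSK overlapped. In polysomal RNA Tfrc rose by 3.26 from LSK to MP (SE 0.70, adjusted p = 0.0385 in edgeR's quasi-likelihood test), whereas the difference in total RNA was 0.79 (SE 0.66, adjusted p = 0.609). The ratio difference itself was 2.47 (SE 0.92, unadjusted p = 0.0236, adjusted p = 0.877), and it was 1.44 without LSK total 1 and 3.59 without LSK polysomal 1. Ireb2, an iron-sensing RNA-binding protein whose known targets include the Tfrc message, gave 3.05 (SE 1.07) on the total side. Over the 21 iron and heme transport genes the median was -0.56, with 6 higher in MP, and it turned to 0.25 without LSK polysomal 2.

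Glycolysis enzymes, which turn glucose into pyruvate and lactate, had a lower ratio in MP in all 19 tested genes, with a median of -1.34. At an unadjusted p under 0.05 there were 2 of 19 (10.5%, against 0.554% of all genes with a lower ratio). The ranges were apart with a lower ratio in 6 (31.6%, against 4.57% of all genes). The median MP minus LSK difference was 0.86 in total RNA, where 16 of 19 were higher in MP. In polysomal RNA it was -0.37, where 5 were higher, and 10 of the 19 lay on the total side. The group's median level in total RNA (log2 CPM) was 7.87 and 5.79 in LSK and 8.33 and 7.60 in MP. LSK total 1 thus lay between the MP total libraries, and only LSK total 2 lay below both. Leaving out both LSK libraries numbered 2 brought the median ratio difference of these enzymes to -0.53. In LSK all 19 had more polysomal than total RNA, with a median of 1.45, and in MP 13 did, with a median of 0.39. Over library pairs the group's median ratio lay between 0.84 and 2.59 in LSK and between -0.39 and 0.80 in MP. Tpi1, triosephosphate isomerase, was at 628 and 334 CPM in LSK total, 1431 and 2071 CPM in LSK polysomal, 995 and 745 CPM in MP total and 1365, 1171 and 907 CPM in MP polysomal RNA. Its ratio difference was -1.46 (SE 0.64, unadjusted p = 0.0471), with polysomal RNA above total RNA in LSK by more than in MP. Gapdh, the glyceraldehyde phosphate dehydrogenase often used as a reference gene, gave -1.10 (SE 0.63). The median of the group was -0.86 without LSK polysomal 2 and -2.12 without LSK total 1.

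Aldoc, the aldolase isoform best known from brain, was the glycolysis gene with the smallest p. It was at 11.3 and 9.40 CPM in LSK total, 40.4 and 49.3 CPM in LSK polysomal, 1.77 and 1.40 CPM in MP total and 1.61, 1.62 and 1.31 CPM in MP polysomal RNA. All 5 MP libraries lay below all 4 LSK libraries, and only in LSK did the fractions stand apart. In polysomal RNA Aldoc fell by 4.89 from LSK to MP (SE 0.51, adjusted p = 0.00696), and the difference in total RNA was -2.71 (SE 0.55, adjusted p = 0.053). Its ratio difference was -2.18 (SE 0.71, unadjusted p = 0.012).

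The respiratory chain, the mitochondrial ribosome and the proteasome had smaller values in the same direction. Nuclear-encoded respiratory chain subunits, the electron carriers and proton pumps of mitochondria, had a median of -0.71 over 76 genes, of which 2 were higher in MP and 24 had lower ranges apart (4.57% of all genes did). The median of mitochondrial ribosomal proteins was -0.71 over 75 genes, with 5 higher and 20 apart, and that of proteasome subunits -0.70 over 39 genes, with 9 higher and 15 apart. No gene of these 3 groups had an unadjusted p under 0.05. The mitochondrial ribosomal proteins had a median of -0.22 without LSK polysomal 2, and the proteasome had -0.45 without LSK polysomal 1. In all 3 groups the difference lay in total RNA, with medians of 0.79, 0.68 and 0.68, and not in polysomal RNA, with medians of 0.06, -0.08 and 0.01. Ndufa9, a subunit of complex I, was at 188 and 86.8 CPM in LSK total, 355 and 449.9 CPM in LSK polysomal, 308 and 273 CPM in MP total and 362, 310.4 and 228 CPM in MP polysomal RNA, and gave -1.50 (SE 0.68, unadjusted p = 0.0532). Only its LSK total libraries lay apart from the rest, at the bottom. Psmb6, a catalytic subunit of the proteasome, gave -1.33 (SE 0.60). Antioxidant enzymes had a median of -0.81 over 26 genes (-0.33 without LSK polysomal 2), and Prdx2, a peroxiredoxin that removes hydrogen peroxide, gave -1.27 (SE 0.58).

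Cytosolic ribosomal proteins, whose messages carry 5′ terminal oligopyrimidine tracts and are known to answer to mTOR, had a lower ratio in MP in 82 of 85 genes, but by a smaller amount. Their median was -0.47 (-0.03 without LSK polysomal 1), from 0.45 in total RNA and -0.03 in polysomal RNA. With a lower ratio, 10 had ranges apart (11.8%, against 4.57% of all genes). The ratio lay below 0 in both populations, at -0.47 in LSK and -0.89 in MP, and over library pairs the ranges of the median overlapped, at -0.89 to -0.07 and at -1.55 to -0.43. Rplp0, a protein of the ribosomal stalk, gave -0.92 (SE 0.60). Translation initiation factors had a median of 0.09 over 42 genes, and ribosome assembly factors a median of 0.28 over 73. Of the initiation factors 1 had an unadjusted p under 0.05 with a higher ratio (2.38%, against 4.74% of all genes). Eif3a, the largest subunit of initiation factor 3, was that 1 gene, at 389.9 and 233 CPM in LSK total, 479.8 and 215 CPM in LSK polysomal, 126 and 103 CPM in MP total and 558, 564 and 469 CPM in MP polysomal RNA. Its total RNA was lower in MP in every library, and the ratio difference was 2.06 (SE 0.71). Nop58, a core protein of box C/D nucleolar particles, gave 2.59 (SE 0.80) and Eprs, which charges 2 transfer RNAs, 1.80 (SE 0.79).

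Genes that define the populations differed mainly in both fractions together. The 46 hematopoietic stem cell genes had a median of -2.90 in total RNA and of -2.37 in polysomal RNA, with 13 and 19 passing the tests of those fractions (1.09% and 3.35% of all genes did), and a median ratio difference of 0.17. Genes of granulocyte and monocyte progenitors lay above LSK in MP, by medians of 2.07 in total and 1.72 in polysomal RNA, and their median ratio difference was -0.61, with 30 of 34 lower. Erythroid genes had medians of 1.95 and 1.51 and a ratio difference of -0.56, with 36 of 48 lower. Without 1 library these ratio differences came to -0.16 (MP total 1) and -0.17 (LSK polysomal 2). Procr and Hlf, a surface receptor and a transcription factor of stem cells, gave ratio differences of -0.29 (SE 0.84) and 0.30 (SE 0.64), although in total RNA they fell by 6.11 and 4.35 from LSK to MP (adjusted p = 0.0326 for both). Mpo and Elane, granule enzymes of myeloid progenitors, gave -0.69 (SE 0.67) and -0.60 (SE 0.57), and in total RNA Elane rose by 3.15 (adjusted p = 0.0326). Of the 46 stem cell genes 2 had an unadjusted p under 0.05 with a higher ratio (4.35%, against 4.74% of all genes). They were Angpt1, a ligand of the Tie2 receptor, with the smaller p, and Mmrn1 at 3.08 (SE 1.27). Angpt1 was at 677 and 304 CPM in LSK total, 415 and 132 CPM in LSK polysomal, 25.3 and 14.2 CPM in MP total and 119.9, 45.6 and 50.7 CPM in MP polysomal RNA. In total RNA it fell by 4.63 (adjusted p = 0.0435), polysomal RNA differed by -1.93 (adjusted p = 0.157), and the ratio difference was 2.71 (SE 1.02, unadjusted p = 0.0249).

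Other genes with a lower ratio in MP rested partly on 1 library. Of the 15 with the smallest p, 10 had ranges apart, whereas 4.57% of all tested genes had ranges apart with a lower ratio. These 15 too were picked by p from the same libraries. Mlec, a lectin of the endoplasmic reticulum, was at 195 and 142 CPM in LSK total, 379 and 277 CPM in LSK polysomal, 363 and 617 CPM in MP total and 257, 251 and 207 CPM in MP polysomal RNA, so polysomal exceeded total RNA in LSK and the reverse held in MP. It gave -2.0 (SE 0.63, unadjusted p = 0.0104). Sorl1, a sorting receptor, gave -1.84 (SE 0.65), and in total RNA it rose by 3.45 from LSK to MP (adjusted p = 0.0326). Aldh2, an aldehyde dehydrogenase of mitochondria, was at 2525 CPM in LSK polysomal 2 and at 153 to 624 CPM in the other 8 libraries, and gave -3.39 (SE 1.27) with it and -0.87 without it. Ighg1, an immunoglobulin heavy chain gene, had 4469 counts in LSK polysomal RNA, at 8.04 and 176 CPM, 5 and 3 counts in total RNA of LSK and MP and 0 in MP polysomal RNA, so no fold is given. C1qa and C1qb, complement genes of macrophages, were at 6.38 and 15.5 CPM and at 6.08 and 27 CPM in LSK polysomal RNA and at no more than 1.90 CPM in the other 7 libraries. Macrophage and dendritic cell genes took 0.0274 to 0.0304% of the counts of LSK polysomal RNA and 0.0128 to 0.0199% of those of LSK total RNA, and 0.0470 to 0.0842% and 0.0251 to 0.0408% of those of MP polysomal and MP total RNA. These shares are sums over the list, and the typical gene had the other direction. Over its 21 tested genes the median MP minus LSK difference was -0.82 in total RNA and -1.41 in polysomal RNA. The part of such cells in these values was not tested.

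The ratio difference moved with base composition across genes. Protein-coding genes with at least 10 CPM in a group were divided into 5 equal parts by the GC content of their transcript. The median ratio difference was 1.26 in the lowest part (33.4 to 44.4% GC), then 0.28, -0.35, -0.70, and -0.99 in the highest (55.7 to 72.9%). In the lowest part 17.9% of 1881 genes had an unadjusted p under 0.05 with a higher ratio, and in the highest 0.0532%. Both fractions contributed, with the MP minus LSK median going from -0.76 to 0.59 in total RNA and from 0.42 to -0.41 in polysomal RNA. By library, genes of the lowest part lay furthest below their mean over all libraries in LSK polysomal 2, at -0.83, and next in MP total 1 and MP total 2, at -0.52 and -0.44, while the other 6 libraries lay between 0.19 and 0.48. Without LSK polysomal 2 the 5 medians were 0.83, 0.17, -0.14, -0.20 and 0.22. Longer transcripts also had higher values, from -0.66 in the shortest to 0.48 in the longest of 5 parts.

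**Figure D4:**
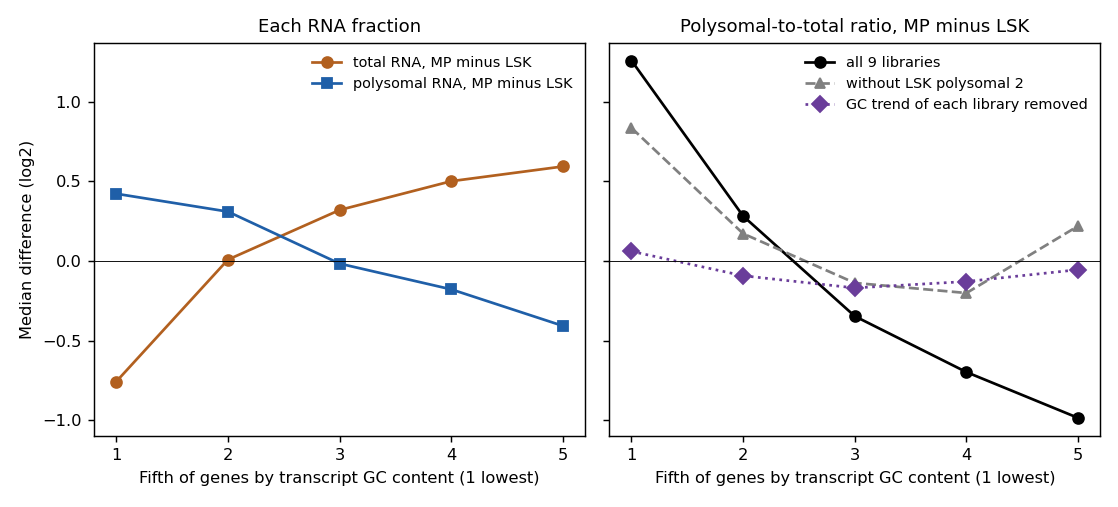
Median difference (log2, vertical axis) of protein-coding genes in 5 equal parts by transcript GC content (horizontal axis, 1 lowest), on the left for each RNA fraction, MP minus LSK, and on the right for the ratio difference with all 9 libraries, without LSK polysomal 2 and after removal of the GC trend per library. The line for all libraries falls from 1.26 to -0.99, and the line with the trend removed stays between -0.17 and 0.06.

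The gene groups followed that order in part. The median GC content was 45.5% for zinc finger genes and 44.6% for nuclear long noncoding RNAs, and 54.0% for glycolysis enzymes, against 49.9% for all tested genes. After the trend with GC content was removed within each library, an alternative chosen after the data had been seen, the 5 medians lay between -0.17 and 0.06. The group medians then became 0.66 for zinc finger genes (249 of 325 higher), 0.71 for nuclear long noncoding RNAs (8 of 13 higher), 0.51 for mitosis genes (34 of 53 higher), -0.74 for glycolysis enzymes, -0.46 for the respiratory chain, -0.46 for the proteasome, -0.39 for mitochondrial ribosomal proteins and -0.16 for cytosolic ribosomal proteins. The counts with a higher ratio at an unadjusted p under 0.05 went from 83 to 19 for zinc finger genes. They went from 5 to 2 for nuclear long noncoding RNAs, from 8 to 3 for mitosis genes and from 778 to 374 over all tested genes. Counts with a lower ratio at such a p rose from 91 to 184 over all tested genes. From 0 each, they rose to 9 for the respiratory chain, 4 for mitochondrial ribosomal proteins and 3 for the proteasome. For cytosolic ribosomal proteins they rose from 0 to 3, but for glycolysis enzymes they fell from 2 to 1. The zinc finger genes kept their total side, with -0.74 in total RNA and -0.04 in polysomal RNA, and so did glycolysis enzymes, with 0.69 and -0.09. Nuclear long noncoding RNAs had -0.79 and 0.71, which is about equal in both fractions. The median ratio differences of TEC models, sense intronic RNAs, snoRNAs and lincRNAs became 1.60, 2.04, 1.09 and 0.19. That of granulocyte and monocyte progenitor genes became -0.24 (11 of 34 higher) and that of erythroid genes -0.05 (20 of 48 higher). Of the splicing and export factors, Srek1 then stood at 2.69, Prpf39 at 2.36 (unadjusted p = 0.00928), Clk1 at 1.83, Rbm25 at 1.37, Luc7l3 at 1.17 (unadjusted p = 0.0837) and Fyttd1 at 0.69 (unadjusted p = 0.365). Of the other genes, Malat1 stood at 3.38, Ncapg at 2.19 and Aldoc at -1.80, whereas Zfp758 stood at 0.42 (unadjusted p = 0.588), Tfrc at 1.00 (unadjusted p = 0.192) and Gapdh at -0.36. Whether base composition, transcript length or the cells set these values was not tested.

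**Figure D5:**
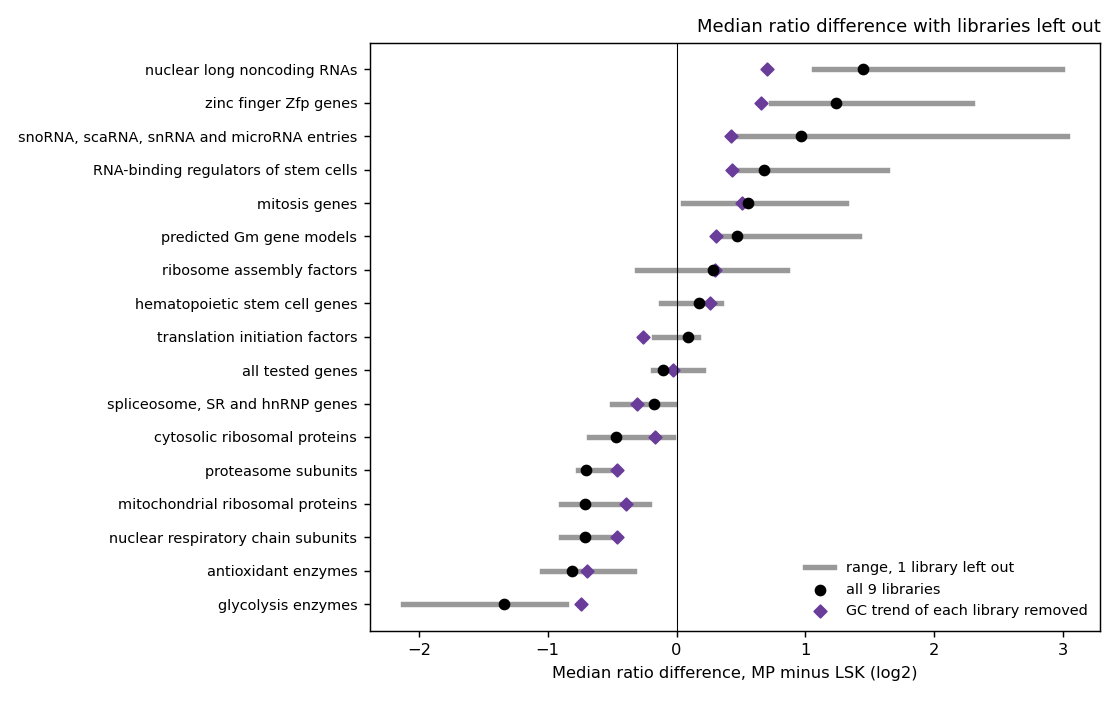
Median ratio difference (log2, horizontal axis) of 16 gene groups and of all tested genes with all 9 libraries (black circles), its range when 1 library at a time is left out (grey bars) and after removal of the GC trend per library (purple diamonds). Zinc finger genes stay between 0.74 and 2.29 and glycolysis enzymes between -2.12 and -0.86 over the 9 fits that leave out a library, while the range of ribosome assembly factors crosses 0.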

How the data were processed

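Per the labels' protocols, Trizol RNA was amplified by SMARTer chemistry. Tools named in the submitters' processing notes are STAR, featureCounts, DESeq2 and bcl2fastq, with mm10 and GRCm38 as builds. No source used here gives versions, annotation or strand. The authors deposited raw counts per gene symbol, which were used as deposited, and a second, normalized table on a scale that resembles log2, which the authors deposited too and which served only as an alternative. All 9 columns were matched to samples by title. The analysis ran in edgeR 4.0.16 under R 4.3.3: filterByExpr (minimum count 10, minimum total 15) kept 16426 genes, libraries were scaled by trimmed mean of M-values (TMM), and a quasi-likelihood model with 1 mean per group was fitted to 9 libraries (5 residual and 4.58 prior degrees of freedom). All p-values are two-sided, and the threshold is 0.05 after Benjamini-Hochberg adjustment over all tested genes. SEs are the log2 difference divided by the root of the F statistic. The fit was also run on simulated counts in which 200 genes changed, in MP polysomal RNA only. That simulation held no change in total RNA and no GC trend per library, so it does not cover those. CPM are TMM-scaled. Positions, biotypes, GC content and lengths are from GENCODE M21 (GRCm38; 96.3% of tested genes matched by symbol), with the transcript of the longest coding sequence for each gene. Gene groups are 51 lists, of which the symbol pattern for RIKEN clones was corrected after the counts had been seen. Members and lists were chosen with earlier results of these data known. Named genes are the 15 with the smallest p in each direction among symbols that are no Gm, RIKEN, pseudogene or accession-like names, with at least 10 CPM in a group, the 2 genes of smallest p in each list and 25 fixed genes; the text gives a part of them, and Zfp944, Zfp946, Dleu2, Ftx and Kcnq1ot1 were added after their values had been seen. A further gene called without a filter is not reported here. Alternatives were DESeq2 1.42.0 (size factors and Wald test), other scalings and filters, limma 3.58.1, replicate blocks, and leaving out each library.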

Additional observations from a re-analysis of the deposited data

How the results depend on the processing

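The count of genes passing the ratio test was 0 in both directions in 20 of 22 alternatives. Without a filter on low counts 2 genes were called higher in MP (Gm17089, Malat1) and 2 lower, Ighg1 among them, and DESeq2's Wald test called 1 higher (Prpf39, adjusted p = 0.00846, against 0.877 in edgeR). Leaving out each library in turn gave 0 to 0 calls, but 445 (without LSK polysomal 2) to 3051 (without LSK polysomal 1) genes at an unadjusted p under 0.05. With the GC trend removed there were 558, 374 of them higher. Scaling by library totals only moved the median of all genes from -0.10 to 0.14. Whether the library numbers pair the libraries is not settled: the deviations of same-numbered total and polysomal libraries correlated at 0.501 in LSK but at 0.509 and -0.637 in MP, not every library correlated best with its own number, and both MP libraries numbered 1 share a high level of neutrophil genes and both LSK libraries numbered 2 one of immunoglobulin genes. The numbers were therefore not used as a block in the values reported. A replicate block gave 1884 genes (1090 higher, 794 lower; within population) or 1857 (1028 and 829; shared) at an unadjusted p under 0.05 and 0 calls.

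Of the 51 list medians, 25 kept their sign in all 22 alternatives, among them zinc finger genes, nuclear long noncoding RNAs, mitosis genes, glycolysis, respiratory chain, proteasome and both sets of ribosomal proteins. The maturing neutrophil list ranged from -3.90 to 1.16, the latter without MP total 1. Of 64 genes, 57 kept their direction. Reversals came without 1 library for Mrpl12 (-3.04 to 0.40), Procr (-0.71 to 0.43), Kit (-0.69 to 1.84) and Actb (-1.38 to 0.17); with the GC trend removed for Procr (0.041), Hlf (-0.34), Mpo (0.084) and Elane (0.15); without both LSK libraries numbered 2 for Mpo (0.050) and Actb (0.58); and under the replicate block for Procr (0.030 within population, 0.031 shared). The GC removal and the leaving out of both LSK libraries numbered 2 were chosen after the data had been seen. The cause was not tested. Genes called between populations, 45 higher and 134 lower in total and 86 and 465 in polysomal RNA, ranged over 0 to 114, 0 to 381, 0 to 190 and 0 to 470 when 1 library was left out, and reached 373, 1078 and 529 with DESeq2 and 1179 without a filter. Polysomal against total RNA reached 73 higher (no filter) and 478 lower (authors' normalized table, limma) in LSK, and 10 higher (DESeq2) and 16 lower (no filter) in MP. Depth was even across libraries, and the number of libraries limits precision.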

Other observations

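Some genes outside these groups also had ratios apart. Mtf2, a Polycomb-associated protein, was at 228 and 181 CPM in LSK total, 149 and 82.9 CPM in LSK polysomal, 69.0 and 51.7 CPM in MP total and 219, 143 and 141 CPM in MP polysomal RNA, with a ratio difference of 2.29 (SE 0.70, unadjusted p = 0.00864). Its total RNA was lower in both MP libraries than in any LSK total library, and its polysomal RNA overlapped. With the GC trend removed it stood at 0.41. Tet2, an enzyme that oxidises methylated cytosine, gave 2.83 (SE 1.05). Ccng1 and Trp53inp1, targets of p53, gave 2.82 (SE 0.83) and 2.16 (SE 0.73), and 5 of the 20 p53 path genes (25%, against 4.74% of all genes) had an unadjusted p under 0.05 with a higher ratio in MP, although the median of the list was 0.14. After removal of the GC trend 0 of the 20 had such a p, and the median was 0.03. Ccng1 and Trp53inp1 then stood at 1.49 and 0.35.

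Interferon response genes had a median of -0.12 over 56 genes, with 4 higher (7.14%) and 1 lower (1.79%) at an unadjusted p under 0.05, against 4.74% and 0.554% of all genes. Samd9l, an antiviral factor, was at 87.4 and 36.1 CPM in LSK total RNA, 29.2 and 11.5 CPM in LSK polysomal, 5.10 and 3.28 CPM in MP total and 15.8, 9.32 and 7.55 CPM in MP polysomal RNA, and gave 2.98 (SE 0.99). Ifih1, a sensor of double-stranded RNA, gave 2.48 (SE 0.86). Slc4a1, the anion exchanger of red cells, gave -2.78 (SE 0.89), with 9.93 and 7.72 CPM in LSK polysomal RNA and 0.997 to 5.70 CPM elsewhere. A lower ratio in MP was also found for 36 of 48 erythroid genes and for 8728 of all 16426 tested genes. Hspa1b, an inducible heat shock gene, was at 45.0 and 171 CPM in LSK total and 8.07 and 5.19 CPM in LSK polysomal RNA, and at 109 and 183 CPM and 21, 44.1 and 174 CPM in MP, with a ratio difference of 3.15 (SE 1.35).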
